A study of Zea mays subsp. mays x Zea mays subsp. mexicana with 20 samples.

Results

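Small RNA loci of at most 50 bp in maize pollen are described here. A locus stands for a run of bases on which small RNA reads were stacked, and its length was taken from its first to its last base. Of the 85421 loci in the deposited table, 5960 were 50 bp or shorter, and the 249 of these with at least 15 reads summed over 6 libraries were kept. They are called short loci below. Only length and summed reads chose them, and the genotypes were not compared in the choice. A locus could still pass through the reads of 1 genotype alone. That was so at 16 loci with reads in Dcl2 only, 5 in dcl2T only and 4 in dcl2-mu1 only, the genotypes described next. The sum also gave more weight to libraries with more reads.

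The 6 pollen libraries came from 3 genotypes in duplicate. The first, Dcl2, had a working copy of *Dcl2*. In the second, dcl2T, both copies of the gene came from teosinte *mexicana*, and this allele lies within a longer *mexicana* stretch retained on chromosome 5 after backcrossing to the inbred W22. In the third, dcl2-mu1, both copies carried a *Mu* transposon inserted in the 5′ leader, and the allele had been backcrossed to W22. All material had a maize by *mexicana* hybrid origin according to the labels. Whether each library came from 1 plant or several was not given, so the p values measure the spread between these libraries only. The other 14 of the 20 samples in the series were not analysed here.

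Dicer-like proteins cut double-stranded RNA into small RNAs of set sizes. DCL1 releases microRNAs from short hairpins, so that almost all reads of a microRNA stack on a single position. DCL2 and DCL4 act on longer duplexes and release short interfering RNAs (siRNAs), whose reads are usually spread along the source. A locus no longer than 1 or a few small RNAs is therefore a stack of 1 or a few sequences, and in plants microRNAs are one known source of such stacks. The table pairs no locus with a gene, a microRNA or a sequence. No short locus could be assigned to a family, the state of *Dcl2* could not be checked against the labels, and the pollen origin could not be checked with marker genes. Positions are printed as the deposited table has them, and their genome build was not given in the sources used here.

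Most loci in this length range held no read in these libraries. Of the 5960 loci of at most 50 bp, 4673 (78.4%) had a count of 0 in all 6 libraries and a further 1038 had between 1 and 14 reads. Among the 79461 longer loci, 9.61% had no read and 55.9% reached 15 reads, against 4.18% of those of at most 50 bp. The lengths were uneven, since 4771 of the 5960 were 18 to 24 bp, the length of a single small RNA, and 3332 of these were exactly 24 bp. Only 45 of the 4771 (0.943%) reached 15 reads, against 204 of the 1189 loci (17.2%) of 25 to 50 bp. Which reads defined the loci without a count was not given in the sources used here.

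**Figure D1:**
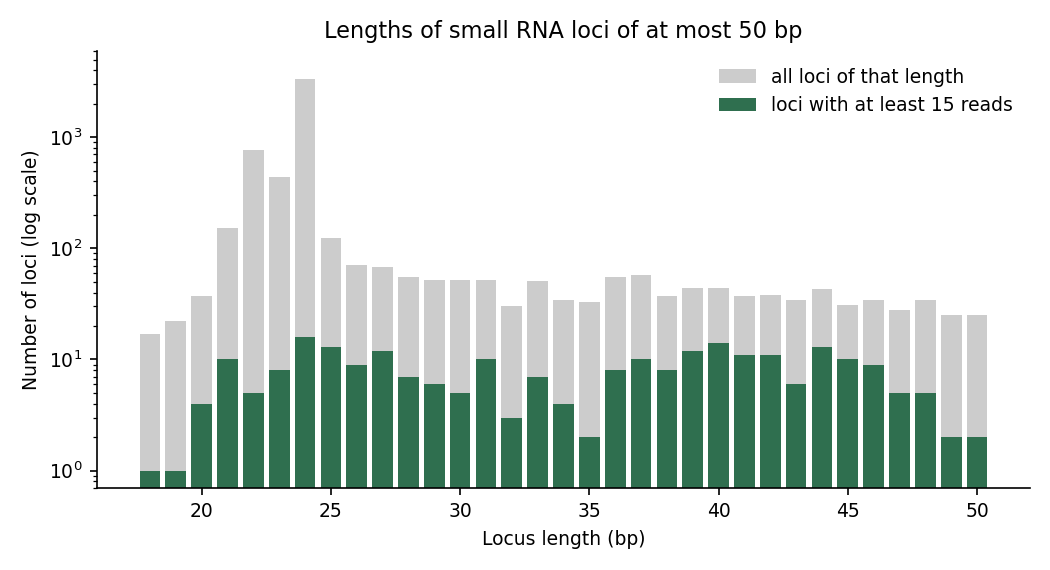
Number of loci (log axis) at each length from 18 to 50 bp, for all loci in the table (grey) and for those with at least 15 reads over 6 libraries (green). Loci of 24 bp are the most frequent grey bar, at 3332, but only 16 of them reached 15 reads.

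The 249 short loci had a median length of 36 bp and a median of 43 reads over the 6 libraries, with an interquartile range of 24 to 80. There were 48 with at least 100 reads and 4 with at least 1000. At the limits of the choice, 7 short loci had exactly 15 reads while 16 further loci of at most 50 bp had 14. There were 2 short loci of exactly 50 bp, of which Cluster_47001 (chromosome 5, 132682379 to 132682428) had 58 reads. Just outside, Cluster_38859 (chromosome 4, 188371080 to 188371130) was 51 bp long with 48 reads. Short loci stood further from other loci than longer ones did, with a median distance to the nearest locus of 6897 bp against 2473 bp.

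Total counts ranged from 1950081 to 4920576 per library, and the lowest was dcl2-mu1 replicate 1. A CPM value (counts per 1000000) is the reads at a locus divided by the total count of the library, so 1 read was worth between 0.203 and 0.513 CPM. Between the 2 libraries of a genotype, log2(CPM + 0.5) over the short loci correlated with r = 0.626 for Dcl2, r = 0.758 for dcl2T and r = 0.526 for dcl2-mu1, a description across loci that share their libraries. The replicates differed by more than counting error. Chi-square per degree of freedom was 9.54 between the Dcl2 libraries, 9.32 for dcl2T and 88.5 for dcl2-mu1. Most of the 88.5 came from 1 locus, Cluster_9898, with 7441 reads in 1 dcl2-mu1 library and none in the other. By r the dcl2-mu1 libraries were the least alike. More than a 2-fold difference between replicates was found at 53.0% of short loci in dcl2-mu1, against 33.7% in Dcl2 and 26.5% in dcl2T.

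Together, the short loci held a small part of each library. In Dcl2 it was 0.121% (95% Wilson interval 0.118 to 0.125) and 0.196% (0.191 to 0.200) of the total count. In dcl2T it was 0.140% (0.137 to 0.144) and 0.191% (0.187 to 0.195). In dcl2-mu1 it was 0.545% (0.535 to 0.556) and 0.133% (0.130 to 0.137). These intervals cover counting error only. The first dcl2-mu1 library was above the other 5 and the second was within the range of Dcl2. Dcl2 averaged 0.158% ± 0.052, dcl2T 0.166% ± 0.036 and dcl2-mu1 0.339% ± 0.291 (SD, n = 2 each). No difference exceeded the spread between replicates, with exact two-sided permutation p values of 1 for dcl2T against Dcl2, 0.667 for dcl2-mu1 against Dcl2 and 1 for dcl2-mu1 against dcl2T. The smallest p that 2 libraries against 2 can give is 0.333. A share of the total is relative, and in bulk pollen fewer cells of a type and less RNA per cell cannot be told apart.

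A single locus set the high value of dcl2-mu1 replicate 1. Cluster_9898, of 25 bp on chromosome 1 (247230094 to 247230118), had no read in either Dcl2 library, 474 and 2157 reads in dcl2T, and 7441 reads and none in dcl2-mu1. It was the most abundant short locus, and in dcl2-mu1 replicate 1 it held 70.0% of all reads at short loci. The dcl2T libraries lay above both Dcl2 libraries, whereas the dcl2-mu1 libraries were the highest of all and level with Dcl2. By the edgeR quasi-likelihood test with Benjamini-Hochberg adjustment it was not called in dcl2T (adjusted p = 0.865) or in dcl2-mu1 (adjusted p = 0.154) against Dcl2. DESeq2 called it in both, with adjusted p values of 8.29e-05 and 2.19e-06. Without this locus, which was left out after its values were seen, the share in dcl2-mu1 replicate 1 was 0.164% and that of the 6 libraries ranged from 0.121% to 0.196%. Then the mean of each mutant was below that of Dcl2, at 0.138% ± 0.012 in dcl2T and 0.149% ± 0.021 in dcl2-mu1.

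**Figure D2:**
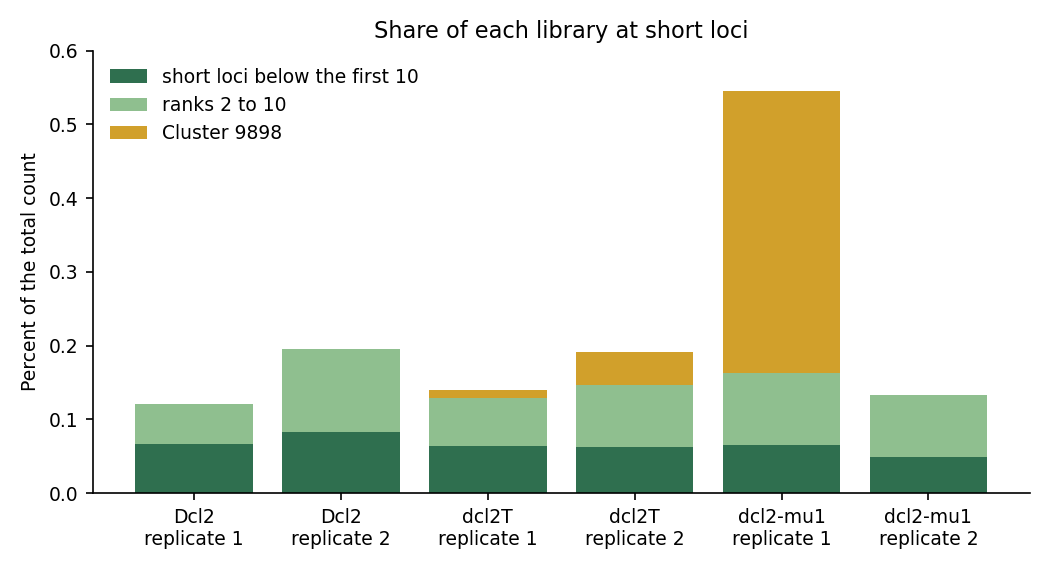
Percent of the total count of each library at short loci, divided into Cluster_9898, the loci ranked 2 to 10 by mean CPM, and the remaining short loci. The bar of dcl2-mu1 replicate 1 reaches 0.545%, of which Cluster_9898 is the upper part, and without it the 6 bars end between 0.121% and 0.196%.

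The most abundant short loci present in every library were a pair of 21 bp loci. Cluster_7235 (chromosome 1, 188440032 to 188440052) was at 246 and 551 CPM in Dcl2, 235 and 348 CPM in dcl2T, and 453 and 296 CPM in dcl2-mu1. Cluster_31948 (chromosome 3, 240493515 to 240493535) was at 188 and 452 CPM in Dcl2, 116 and 187 CPM in dcl2T, and 165 and 268 CPM in dcl2-mu1. At both loci the highest library was Dcl2 replicate 2, and the Dcl2 libraries overlapped those of dcl2-mu1. For Cluster_7235 the log2 fold change against Dcl2 came to -0.60 ± 0.37 (SE) for dcl2T and -0.47 ± 0.37 for dcl2-mu1, with edgeR adjusted p values of 1 and 0.617. For Cluster_31948 it was -1.22 ± 0.48 and -0.85 ± 0.47, with edgeR adjusted p values of 1 and 0.432.

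Cluster_5568, another 21 bp locus (chromosome 1, 145381745 to 145381765), was the only short locus that edgeR called in any of the 3 comparisons. It had no read in either Dcl2 library, 559 and 450 reads in dcl2T, and 324 and 150 reads in dcl2-mu1. All 4 mutant libraries were therefore above both Dcl2 libraries, at 128 and 91.5 CPM in dcl2T and 166 and 36.7 CPM in dcl2-mu1. Against a floor of 3 reads over the 2 Dcl2 libraries (0.359 CPM), the mean was at least 306-fold higher in dcl2T and at least 283-fold higher in dcl2-mu1. The edgeR adjusted p was 0.00400 for dcl2-mu1 and 0.0165 for dcl2T, and the threshold was 0.01. Over the other settings tried for dcl2-mu1, apart from leaving out libraries, the adjusted p ranged from 1.97e-23 to 0.0887. The call was lost with only the 2 genotypes in the fit, with a filter of 5 CPM in 2 libraries, and without either Dcl2 library. The mutants did not differ detectably from each other (log2 fold change -0.45 ± 0.58, edgeR adjusted p = 0.851).

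Among the 6 remaining loci of the 10 most abundant, 2 had no read in 1 library of a genotype and reads in the other. Cluster_30905 (23 bp, chromosome 3) was at 25.5 and 10.9 CPM in Dcl2, at 0 and 28.0 CPM in dcl2T, and at 60.5 and 81.3 CPM in dcl2-mu1. Cluster_19419 (19 bp, chromosome 2) was at 9.58 and 0 CPM in Dcl2, 34.4 and 19.5 CPM in dcl2T, and 25.1 and 48.2 CPM in dcl2-mu1. The dcl2-mu1 libraries of both loci lay above both Dcl2 libraries, and no difference passed the edgeR threshold. Cluster_49564 (40 bp, chromosome 5, 197958766 to 197958805) had close replicates, at 5.04 and 5.01 CPM in Dcl2, 26.6 and 32.1 CPM in dcl2T, and 32.3 and 23.5 CPM in dcl2-mu1. Against Dcl2, the log2 fold change was 2.37 ± 0.51 for dcl2T and 2.07 ± 0.50 for dcl2-mu1, with edgeR adjusted p values of 0.293 and 0.1000, and DESeq2 called it in dcl2T (adjusted p = 0.00722).

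**Figure D3:**
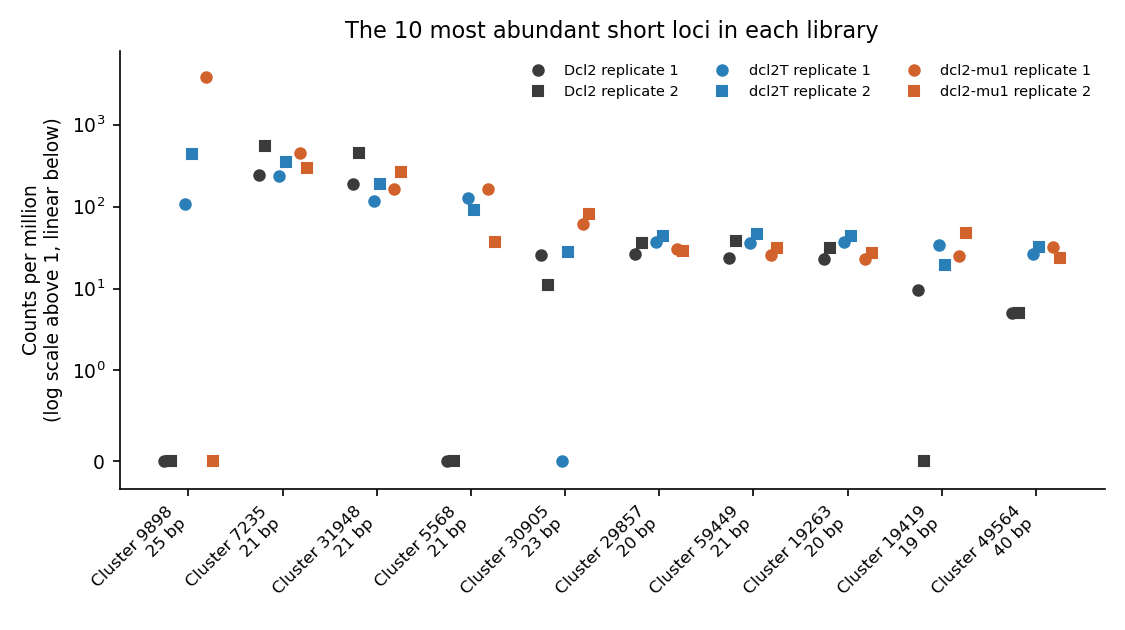
CPM of the 10 most abundant short loci in each library (circles are replicate 1, squares replicate 2; log axis above 1, linear below, so that a count of 0 can be shown). Cluster_9898 and Cluster_5568 have no read in Dcl2, while Cluster_7235 is between 235 and 551 CPM in all 6 libraries.

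Several abundant short loci had nearly the same counts in every library. Of the 1128 pairs among the 48 loci with at least 100 reads, 9 pairs stayed within 1.5-fold of each other (reads + 1) in all 6 libraries. Cluster_29857 (20 bp, chromosome 3), Cluster_59449 (21 bp, chromosome 7) and Cluster_19263 (20 bp, chromosome 2) formed one such set, on 3 chromosomes. Cluster_29857 was at 26.2 and 36.0 CPM in Dcl2, 36.9 and 44.3 CPM in dcl2T, and 30.8 and 28.9 CPM in dcl2-mu1. Cluster_59449 was at 23.7 and 37.8, 36.0 and 46.3, and 25.6 and 31.6 CPM in the same order. Cluster_19263 was at 22.7 and 31.2 CPM, 37.2 and 43.3 CPM, and 23.1 and 26.9 CPM. Both dcl2-mu1 libraries were below both dcl2T libraries at all 3 loci, and both dcl2T libraries were above both Dcl2 libraries at Cluster_29857 and Cluster_19263. No difference passed the threshold. The log2 fold change of dcl2-mu1 against dcl2T was -0.65 ± 0.41 at Cluster_29857, -0.70 ± 0.45 at Cluster_59449 and -0.86 ± 0.44 at Cluster_19263 (edgeR adjusted p = 0.562, 0.572 and 0.434).

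The other alike pairs included Cluster_1649 and Cluster_1650 on chromosome 1, of 37 and 38 bp and 9809 bp apart. Cluster_1650 had 77 and 121 reads in Dcl2, 84 and 81 reads in dcl2T, and 11 and 25 reads in dcl2-mu1. Cluster_1649 had 60 and 130, 81 and 93, and 9 and 26 reads. Both dcl2-mu1 libraries were the lowest at each locus, with log2 fold changes against Dcl2 of -2.32 ± 0.56 and -2.31 ± 0.61 and edgeR adjusted p values of 0.0984 and 0.127. DESeq2 called Cluster_1650 lower (adjusted p = 0.00503) and not Cluster_1649 (adjusted p = 0.0106). This pair was chosen for description after its values were seen. Reads that match several places can be counted at more than one locus or divided among them, and whether loci with like counts share a sequence was not tested.

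By length, the 10 loci of 21 bp held most reads of the 18 to 24 bp class. They summed to 465 and 1056 CPM in Dcl2, 521 and 681 CPM in dcl2T, and 825 and 637 CPM in dcl2-mu1, and the genotypes overlapped. The 5 loci of 22 bp, the usual siRNA length of DCL2, were at 5.55 and 29.8 CPM in Dcl2, 16.3 and 15.9 CPM in dcl2T, and 6.67 and 2.45 CPM in dcl2-mu1. Locus length is not read length, and the table does not divide reads by length. The most abundant of the 22 bp loci, Cluster_61790 (chromosome 7, 115007001 to 115007022), had 0 and 98 reads in Dcl2, 36 and 22 in dcl2T and none in dcl2-mu1. A single Dcl2 library thus held most of its reads. The 16 loci of 24 bp summed to 48.2 and 52.8 CPM in Dcl2, 26.6 and 45.1 CPM in dcl2T, and 61.5 and 47.3 CPM in dcl2-mu1. The most abundant of them, Cluster_51943 (chromosome 6, 33507808 to 33507831), was at 11.3 and 12.7 CPM in Dcl2, 8.95 and 15.2 CPM in dcl2T, and 36.9 and 13.0 CPM in dcl2-mu1.

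Differences across the whole table were tested with edgeR. A call needed an adjusted p no larger than 0.01 together with a log2 fold change of 2 or more, up or down. Of the 249 short loci, 139 passed the filter on low counts, 26 of them of 18 to 24 bp, and 110 were not tested. In dcl2T against Dcl2, none of the 139 was called lower, where 0.00887% of all 22558 tested loci were, and none was called higher, where 0.0177% were. At an unadjusted p under 0.05, edgeR gave 20 lower (14.4%), against 1.92% of all tested loci, and 7 higher (5.04%), against 2.14%. Some of the 20, such as Cluster_85092, had reads in Dcl2 only, and Cluster_85366 of the 7 had reads in dcl2T only. Such loci passed the 15-read rule through 1 genotype alone. Their part of these counts, and of those without overlap, follows from the choice. Of the 20, 8 were among the 13 tested short loci of 2 chromosome windows described below. Outside those windows 12 of 126 were lower and 7 higher, and the median log2 fold change was -0.04. The 20 became 11 without Dcl2 replicate 1, 5 without Dcl2 replicate 2, 7 without dcl2T replicate 1 and 6 without dcl2T replicate 2, and the 7 became 4 without dcl2T replicate 1. DESeq2 called 1 lower and 3 higher, and its calls over all tested loci were not counted. The median log2 fold change of the tested short loci was -0.17, against 0.07 over all tested loci. Among all 249, 56 (22.5%) had both dcl2T libraries below both Dcl2 libraries, against 10.8% of the 44629 loci with at least 15 reads. In the other direction there were 55 (22.1%), against 26.2%.

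The lower loci with the smallest p in this comparison had reads in Dcl2 alone. Cluster_85092 (43 bp, on an unplaced scaffold) had 32 and 63 reads in Dcl2 and none in the 4 mutant libraries. Cluster_80759 (47 bp, chromosome 10, 53636363 to 53636409) had 25 and 55 reads in Dcl2 and none in the mutants. Against the floor of 3 reads over the 2 dcl2T libraries (0.323 CPM), they were at least 34.7-fold and 29.1-fold lower in dcl2T. The edgeR adjusted p values were 0.361 and 0.454, and DESeq2 called Cluster_85092 (adjusted p = 0.00465).

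In dcl2-mu1 against Dcl2, none of the 139 was called lower, against 0.186% of all tested loci, and 1 was called higher, Cluster_5568, against 0.235%. This count was 0 without either Dcl2 library and 2 without dcl2-mu1 replicate 2. At an unadjusted p under 0.05, edgeR gave 28 lower (20.1%), against 10.4%, and 9 higher (6.47%), against 5.09%. Some of the 28, such as Cluster_85092, had reads in Dcl2 only and passed the 15-read rule through Dcl2 alone. Their part of this count, and of that without overlap, follows from the choice. Of the 28, 11 were among the 13 tested short loci of the 2 windows described below. Outside those windows 17 of 126 were lower and 9 higher, and the median log2 fold change was -0.42. The 28 became 16 without Dcl2 replicate 2, and the 9 became 5 without Dcl2 replicate 2 or dcl2-mu1 replicate 1. DESeq2 called 11 lower and 2 higher. Without the filter on low counts, edgeR called 7 lower and 2 higher. For neither of these settings were calls over all tested loci counted, so an excess among short loci cannot be judged. The median log2 fold change was -0.52, against -0.30 over all tested loci. Both dcl2-mu1 libraries were below both Dcl2 libraries at 80 of the 249 loci (32.1%), against 23.2% of loci with at least 15 reads. Both were above at 32 (12.9%), against 13.1%.

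Of the 11 short loci that DESeq2 called lower in dcl2-mu1, 9 had a count of 0 in both libraries of that genotype. The smallest edgeR p values belonged to Cluster_46266 (41 bp, chromosome 5, 108756541 to 108756581) and Cluster_46249 (40 bp, chromosome 5, 107797178 to 107797217). Cluster_46266 had 40 and 59 reads in Dcl2, 45 and 49 in dcl2T, and none in dcl2-mu1. Cluster_46249 had 36 and 64, 49 and 44, and none. Their counts were the most alike of all pairs compared, within 1.11-fold in every library. Against the floor of 3 reads over the 2 dcl2-mu1 libraries (0.497 CPM), the means were at least 23.7-fold and 23.8-fold lower than in Dcl2, and at least 20.4-fold and 20.3-fold lower than in dcl2T. The edgeR adjusted p values against Dcl2 were 0.0236 and 0.0253, and those of DESeq2 were 1.35e-04 and 1.54e-04. Between dcl2T and Dcl2 these loci were level, with log2 fold changes of -0.37 ± 0.74 and -0.37 ± 0.76 (edgeR adjusted p = 1 for both).

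In dcl2-mu1 against dcl2T, none of the 139 was called lower, against 0.199% of all tested loci, and none higher, against 0.164%. At an unadjusted p under 0.05, edgeR gave 12 lower (8.63%), against 9.94%, and 2 higher (1.44%), against 3.37%. Without dcl2-mu1 replicate 2 these became 25 and 4, and the 2 became 0 without dcl2T replicate 1 and 1 without dcl2T replicate 2 or dcl2-mu1 replicate 1. DESeq2 called 3 lower and 0 higher, again without a count over all tested loci. The median log2 fold change was -0.43, against -0.37 over all tested loci. The groups did not overlap at 74 loci with dcl2-mu1 lower (29.7%), against 33.1%, and at 25 with dcl2-mu1 higher (10.0%), against 11.2%. These shares were close to those of all loci. The higher loci with the smallest p were Cluster_4835 and Cluster_16129. Cluster_4835 (45 bp, chromosome 1, 119547039 to 119547083) was at 1.77 and 1.59 CPM in Dcl2, 1.84 and 2.64 CPM in dcl2T, and 18.5 and 13.7 CPM in dcl2-mu1. Both dcl2-mu1 libraries were above the other 4, with a log2 fold change of 2.60 ± 0.87 against dcl2T and 2.84 ± 0.89 against Dcl2 (edgeR adjusted p = 0.288 and 0.193). Cluster_16129 (27 bp, chromosome 2, 85886652 to 85886678) was at 0 and 6.15 CPM in Dcl2, had no read in dcl2T, and was at 7.69 and 3.92 CPM in dcl2-mu1. Its edgeR adjusted p against dcl2T was 0.325. The 3 comparisons share libraries pairwise, so their counts are not independent of each other.

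Presence alone was compared at equal depth. After each library was thinned at random to 1950081 counts, 195 and 204 of the 249 short loci had at least 1 read in Dcl2, 193 and 189 loci in dcl2T, and 114 and 165 loci in dcl2-mu1. Both dcl2-mu1 libraries were below the other 4, though they were further from each other than the second was from dcl2T. The means differed by 8.5 loci between Dcl2 and dcl2T and by 60 between Dcl2 and dcl2-mu1, with exact two-sided permutation p = 0.333 in each case, the smallest possible. The share of short loci without a read in the thinned libraries was 54.2% and 33.7% in dcl2-mu1, against 61.6% and 31.9% of longer loci with at least 15 reads. In dcl2T it was 22.5% and 24.1%, against 16.9% and 16.1%, and in Dcl2 it was 21.7% and 18.1%, against 26.9% and 28.1%.

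Over both libraries of a genotype at full depth, 16 short loci (6.43%) had no read in Dcl2, against 6.63% of all loci with at least 15 reads. In dcl2-mu1 there were 52 (20.9%), against 20.8%, so that the short loci matched the background there. In dcl2T there were 28 (11.2%), against 1.98%. Reads were confined to Dcl2 at 16 short loci (6.43%), against 0.587% of all loci with at least 15 reads. At 13 of these, both Dcl2 libraries had reads. The sums of all 16 ran from 15 reads to the 95 reads of Cluster_85092, so a few reads in a mutant could have gone undetected at many of them. Some other restricted patterns were also more frequent among short loci. Reads were in dcl2-mu1 alone at 4 (1.61%), against 0.280%, and of these only Cluster_20292 had reads in both libraries. Reads in Dcl2 and dcl2-mu1 but not dcl2T were found at 8 (3.21%), against 1.12%. The most frequent restricted pattern, Dcl2 and dcl2T but not dcl2-mu1, was rarer among short loci, at 31 (12.4%), against 18.7%. Reads were in 1 library only at 9 short loci (3.61%), against 0.836%. The opposite pattern to reads in Dcl2 alone, with reads in both mutants and none in Dcl2, was found at 7 short loci (2.81%), against 4.78%. Cluster_9898 and Cluster_5568 were among these 7.

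**Figure D4:**
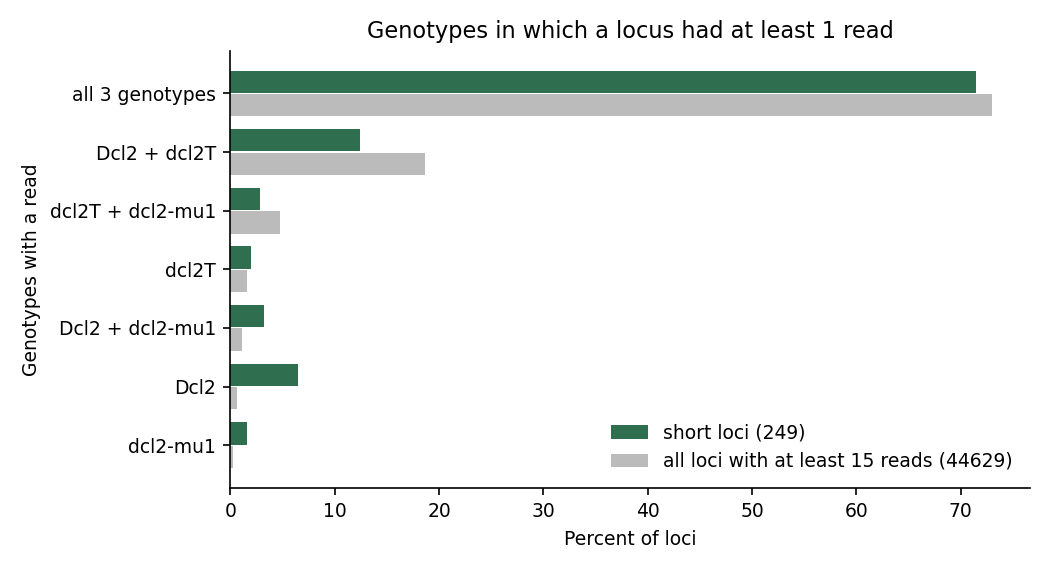
Percent of loci by the genotypes in which they had at least 1 read over 2 libraries, for the 249 short loci (green) and all 44629 loci with at least 15 reads (grey). Both bars are longest for all 3 genotypes, at 71.5% and 73.0%, and the green bar exceeds the grey one for Dcl2 alone (6.43% against 0.587%), dcl2-mu1 alone (1.61% against 0.280%), dcl2T alone (2.01% against 1.57%) and Dcl2 with dcl2-mu1 (3.21% against 1.12%). The green bar is shorter for Dcl2 with dcl2T (12.4% against 18.7%) and for dcl2T with dcl2-mu1 (2.81% against 4.78%).

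The short loci were not spread evenly along the chromosomes. Chromosome 5 held 39 of them (15.7%), against 10.7% of all loci with at least 15 reads, and unplaced scaffolds held 12 (4.82%), against 0.775%. In windows of 5 Mb, 2 stood out, and they were picked after the counts were seen. On chromosome 5 between 105 and 110 Mb there were 11 short loci among 83 loci (13.3%), and on chromosome 4 between 110 and 115 Mb there were 8 among 67 (11.9%). No other window held more than 4. Of the 16 short loci with reads in Dcl2 alone, 7 were in these windows.

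Within the 2 windows most short loci were low in both mutants. Cluster_46249 and Cluster_46266 were level with Dcl2 in dcl2T, and Cluster_36159 overlapped Dcl2 in both mutants. The 11 on chromosome 5 summed to 208 and 279 reads in Dcl2, 102 and 97 reads in dcl2T, and 0 and 7 reads in dcl2-mu1. Nearly all of the dcl2T reads were those of Cluster_46249 and Cluster_46266. The 8 on chromosome 4 summed to 136 and 226 reads in Dcl2, 16 and 15 reads in dcl2T, and 8 and 4 reads in dcl2-mu1, and all 12 of the last came from Cluster_36159 (39 bp). Cluster_36054 (40 bp, chromosome 4, 111371040 to 111371079) was one example, with 53 and 59 reads in Dcl2, 4 and 1 in dcl2T, and none in dcl2-mu1. Its edgeR adjusted p values against Dcl2 were 0.505 for dcl2T and 0.0567 for dcl2-mu1, so edgeR called neither. DESeq2 called it in dcl2-mu1 (adjusted p = 5.12e-04) and not in dcl2T (adjusted p = 0.0212). Both dcl2T libraries were below both Dcl2 libraries at 15 of the 19 short loci (78.9%), against 51 of the 131 longer loci of the windows (38.9%) and 10.8% of all loci with at least 15 reads. Both dcl2-mu1 libraries were below both Dcl2 libraries at 17 of the 19 (89.5%), against 67 of 131 (51.1%) and 23.2%. These windows were picked with counts in view, and the differences between these shares were not tested. Singly, 13 of the 19 short loci were tested with edgeR, which called none. At an unadjusted p under 0.05 it gave 8 lower in dcl2T and 11 lower in dcl2-mu1 against Dcl2. Over all tested loci these shares were 1.92% and 10.4%. Window loci with reads in Dcl2 alone passed the 15-read rule through Dcl2 only. Their part of these counts, and of the 15 and 17 above, follows from the choice.

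No read was found in dcl2-mu1 at 9 of the 11 short loci on chromosome 5, against 26 of the 72 longer loci (36.1%), and at 7 of the 8 on chromosome 4, against 26 of 59 (44.1%). In Dcl2 it was at 0 of the 11 and 0 of the 8, against 3 of 72 (4.17%) and 4 of 59 (6.78%). Over loci of any length with at least 15 reads, a few other windows had like shares without a read. Only the 162 windows with at least 1 short locus were looked at. On chromosome 1 between 135 and 140 Mb it was 51.4% in dcl2-mu1 and 16.2% in dcl2T. On chromosome 2 between 95 and 100 Mb it was 47.1% and 12.9%. The chromosome 5 window had 42.2% and 16.9%, and the chromosome 4 window 49.3% and 13.4%. Outside the 2 windows, 41 of 230 short loci (17.8%) had both dcl2T libraries below both Dcl2 libraries, against 10.8% of all loci with at least 15 reads, and 55 (23.9%) had both above, against 26.2%. There, 36 (15.7%) had no read in dcl2-mu1, against 20.8%, and 9 (3.91%) had reads in Dcl2 alone, against 0.587%. Because the dcl2T plants carry *mexicana* chromosome stretches, a difference of sequence at a locus and an effect of the allele of *Dcl2* cannot be told apart in that genotype. The same holds in dcl2-mu1 for sequence kept from the Uniform-Mu line in which the insertion was found. On chromosome 10, 31.2% of all loci with at least 15 reads had no read in dcl2-mu1, against 20.8% over all chromosomes. The cause was not tested.

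**Figure D5:**
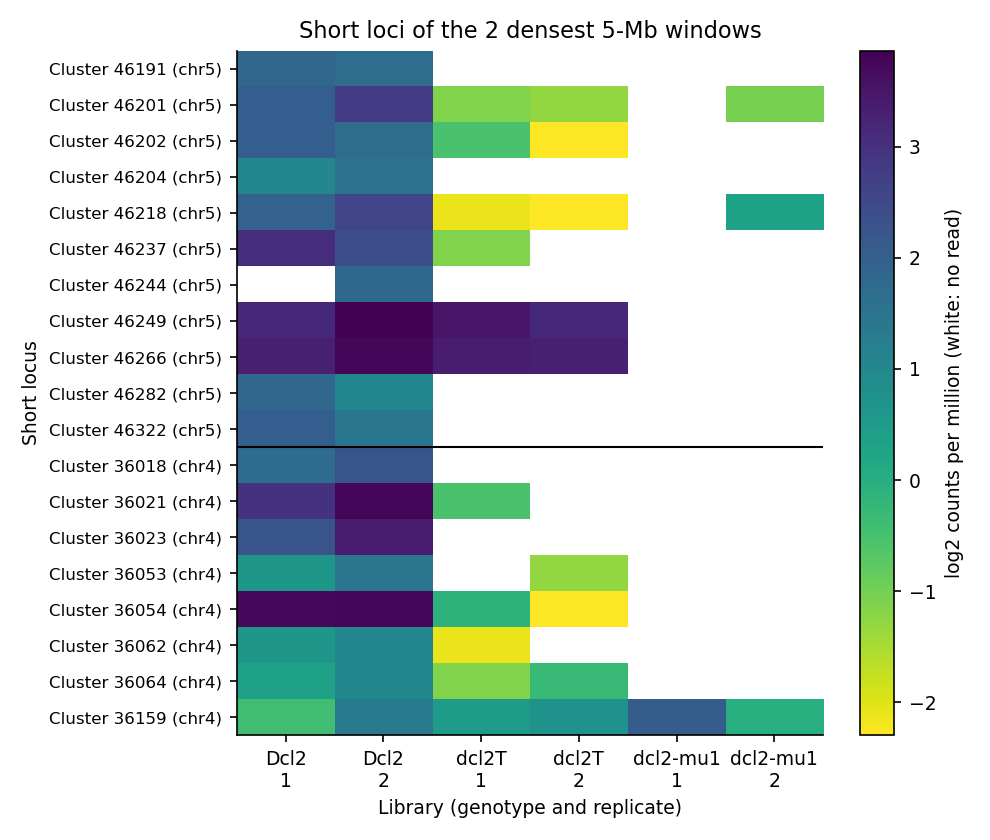
Log2 CPM of the 19 short loci of the 2 densest 5 Mb windows (rows; 11 on chromosome 5 above the line, 8 on chromosome 4 below it) in the 6 libraries (columns), with white for no read. The Dcl2 columns are filled except for 1 cell, while dcl2-mu1 replicate 1 has a read at 1 locus only, Cluster_36159.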

How the data were processed

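Small RNA libraries from pollen of 3 genotypes, with 2 biological replicates each, were analysed. Groups and replicate numbers came from the labels. The authors trimmed reads with cutadapt, removed structural RNA reads with bowtie2, and aligned reads and found loci with ShortStack above a minimum abundance. How it placed reads with several matches was not given in the sources used here. The deposited values are raw read counts per locus with all read lengths together, and the authors' column of summed counts was not used.

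The full table was tested with edgeR 4.0.16 in R 4.3.3 (filterByExpr, minimum count 10, minimum total 15, TMM factors, glmQLFit and glmQLFTest on 6 libraries, Benjamini-Hochberg adjustment over 22558 loci). Standard errors are approximate, derived from the F statistic. The code was tested on simulated data. Python 3.11.15 with scipy 1.17.1 gave the exact tests and 95% Wilson intervals. Alternatives were DESeq2 1.42.0, other scalings and filters, a replicate block, fewer libraries and other limits of length. The loci named were the 10 most abundant, those called or of smallest p in each comparison, the most abundant at each length of 20 to 24 bp, those absent from 1 genotype, and those at the limits of length. The others are marked as chosen later or described within a window. The loci, rules and tests were chosen with earlier results of these data known. The planned match to microRNA families was not made, because no genome was used.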

Additional observations from a re-analysis of the deposited data

How the results depend on the processing

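The number of reads limits what can be seen at short loci, since 110 of 249 were not tested and a median locus had 43 reads over 6 libraries. With 2 libraries per genotype, no exact test could pass 0.05. The lower detection in both mutants kept its direction under all alternatives run, without thinning, at 5 reads or more and with each library left out. The share of the total count turned. For dcl2T minus Dcl2 it was 0.00715 percentage points, and -0.0112 without the 10 most abundant short loci, -0.0142 at 24 bp or less, and -0.0202 without Cluster_9898, an alternative chosen after seeing the data. For dcl2-mu1 minus Dcl2 it was 0.181, and -0.0176 without the 10 and -0.00998 without Cluster_9898. For dcl2-mu1 minus dcl2T it was 0.174, and -0.00643 without the 10. Leaving out each library gave -0.0299 to 0.0442, -0.0251 to 0.387, and -0.0322 to 0.380 percentage points, and the negative values came without dcl2T replicate 2 or Dcl2 replicate 1 in the first, and without dcl2-mu1 replicate 1 in the others. Without Cluster_9898 alone, dcl2-mu1 minus dcl2T stayed positive at 0.0102. The cause was not tested.

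For the alternatives below, calls over all tested loci were not counted. Of short loci called in dcl2T against Dcl2, 0 were lower, and 1 with DESeq2. Also 0 were higher, and 1 with library size alone, 3 with DESeq2, 2 without a filter, 1 at an adjusted p of 0.05, and 0 to 1 with a library left out (1 without dcl2T replicate 2 or either dcl2-mu1 library). In dcl2-mu1 against Dcl2, 0 were lower, and 11 with DESeq2, 7 without a filter and 2 at an adjusted p of 0.05. There 1 was higher, and 2 with DESeq2, 2 without a filter, 0 with a filter of 5 CPM or with only the 2 genotypes, and 0 to 2 with a library left out. In dcl2-mu1 against dcl2T, 0 were lower, and 3 with DESeq2, 3 without a filter and 2 at an adjusted p of 0.05, and 0 were higher, and 1 without a filter. Among 788 values of single named loci, 756 stayed on their side of the threshold, 28 passed it and 4 no longer did. The cause was not tested. Deviations of libraries with the same replicate number correlated at -0.056, 0.003 and 0.004 over the short loci. At loci with so few reads this cannot show whether equal numbers shared a batch. A replicate block called 1 short locus higher in dcl2T against Dcl2 and changed no other count of calls. It moved the loci lower in dcl2T at an unadjusted p under 0.05 from 20 to 11. For dcl2-mu1 against Dcl2 it moved the lower loci from 28 to 22 and the higher ones from 9 to 6.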
